A study of Mus musculus with 6 samples.

Results

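Aminoacyl-tRNA synthetases, the enzymes that attach each amino acid to its transfer RNA, were taken from the deposited table by gene symbol. The rule kept protein coding genes named after an amino acid's letter followed by "ars", with or without a final 1 or 2, and Eprs, Farsa, Farsb and Tarsl2. It found 38 genes among 22046 protein coding genes and 54532 genes in all. Of the 38, 17 symbols other than Tarsl2 end in 2 and name enzymes of the mitochondrial matrix, and the other 21 name enzymes of the cytosol. Tarsl2 is counted with the cytosolic enzymes because its product works in the cytosol, and Gars and Kars stay there although each also supplies the mitochondrial enzyme.

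Polyadenylated RNA of whole hearts was sequenced from mice 4 days old, 3 of genotype Wtapflox/flox (written Wtap-flox) and 3 of genotype Wtap-CKO. Wtap encodes a regulatory subunit of the complex that writes N6-methyladenosine on messenger RNA, and the series concerns its effect on heart development. The submitters call the 3 hearts of each group independent biological replicates. The sources used here state neither the Cre driver and the cells in which it acts nor the deleted exons, the strain or the sex, and whether the Wtap-flox mice carry a Cre allele is likewise not stated.

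A synthetase recognises its amino acid, activates it with ATP and joins it to the matching tRNA, so that the ribosome reads the correct residue. The bifunctional Eprs serves both glutamate and proline. Cytosolic translation uses one set of enzymes, several of them held in a multisynthetase complex. Mitochondria, abundant in heart muscle, import a separate set encoded in the nucleus to translate the few respiratory chain subunits encoded by mitochondrial DNA. Many cytosolic synthetase genes are known targets of ATF4, the transcription factor of the integrated stress response, and uncharged tRNA is the signal sensed by its kinase GCN2. Inherited defects in several mitochondrial synthetases are known to cause cardiomyopathy.

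Values are FPKM, reads scaled by gene length and by a factor for each library, so levels of different genes in a library can be set side by side. The factor did not follow the summed reads alone. A read at 1 kb was worth 0.0567 FPKM in Wtap-CKO 3, with 18045599 reads, and 0.0564 FPKM in Wtap-flox 3, with 17115796 reads. Values per heart are listed in the order of replicates 1, 2 and 3. Each library held between 15649028 and 18045599 reads, and the synthetase genes had between 105 and 4402 reads per library. Whole-gene Wtap was 7.77, 8.74 and 10.9 FPKM in the Wtap-flox hearts and 9.32, 7.75 and 9.46 FPKM in the Wtap-CKO hearts, a log2 fold change of -0.04 (limma, adjusted p = 0.893). A count over the whole gene does not check a label for a deletion whose exons are not stated. Heart muscle markers had the highest sum of the marker lists in every library (9 genes, summed 16319 to 19892 FPKM in Wtap-flox and 17727 to 22787 in Wtap-CKO). Markers of lymphocytes, lung, liver and thymus had means under 1 FPKM each. Macrophage markers summed to between 30.3 and 35.2 FPKM in Wtap-flox and between 45.7 and 71.4 in Wtap-CKO, with 3 of 6 higher (0 to 3 over the refits tried) and 0 lower. Monocyte and neutrophil markers summed to between 4.47 and 8.72 FPKM against 10.8 to 77.7, with the top value in Wtap-CKO 3 and 1 of 3 tested higher. Of the 9 heart muscle markers 1 was higher (Nppa, log2 fold change 3.77) and 0 lower, and of 5 erythroid markers 0 passed. Nppa lost its call with the replicate block, and 1 heart muscle marker was lower with TPM or quantile scaling, with limma-voom and with no variance trend. Endothelial markers gave 1 higher and 1 lower of 6, fibroblast markers 0 and 1 of 6, and smooth muscle markers 1 and 0 of 3. The lower endothelial marker, Kdr, lost its call whichever library was left out, and the lower fibroblast marker, Dcn, whichever was left out other than Wtap-CKO 3. The higher smooth muscle marker, Cnn1, lost its call without Wtap-flox 3 or Wtap-CKO 1. Their part in the synthetase values was not tested, and in whole hearts fewer cells of a type and less RNA per cell cannot be told apart.

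All 38 synthetase genes had a mean of at least 1 FPKM and were tested. On the log2(FPKM + 1) scale, with limma across 12568 genes and Benjamini-Hochberg adjustment at 0.05, 4 of the 38 (10.5%) differed between the groups: Ears2 rose, and Sars2, Mars2 and Tarsl2 fell. Over all genes tested 16.6% passed, 9.91% higher and 6.69% lower in Wtap-CKO, so the share among the synthetases was not above that of genes at large. Of the 17 mitochondrial enzymes 1 was higher and 2 were lower, and of the 21 cytosolic enzymes 0 were higher and 1 was lower. The median log2 fold change was -0.08 for the mitochondrial and 0.04 for the cytosolic enzymes, against 0.00 over all genes, whose quartiles lay at -0.21 and 0.25. The fold changes had an SD of 0.40 over the mitochondrial genes and 0.23 over the cytosolic genes. For the other 34, the 95% interval lay within 0.5 log2 units of no change (1.41-fold) for 22 and within 1 unit for 33, the exception being Lars2.

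**Figure D1:**
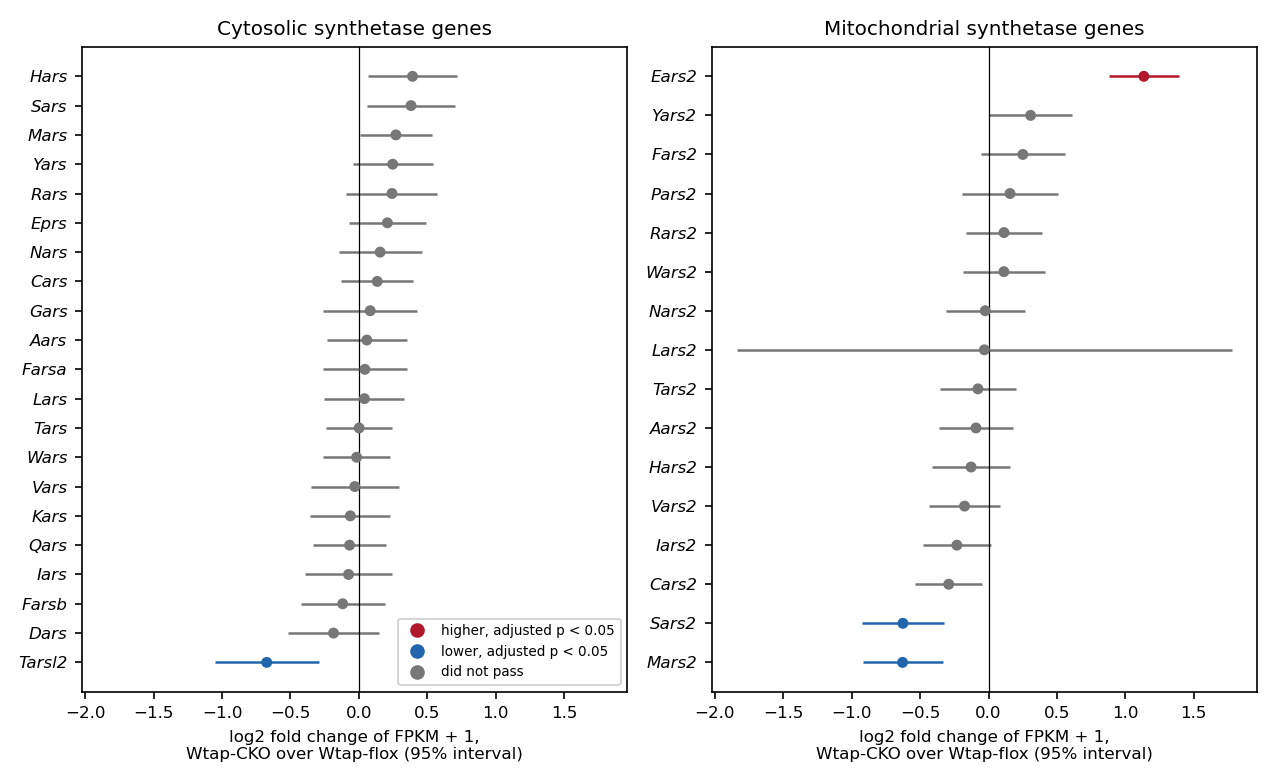
Log2 fold change of FPKM + 1 (horizontal axis), Wtap-CKO over Wtap-flox, for 21 cytosolic and 16 of the 17 mitochondrial synthetase genes, with 95% intervals from limma. Ears2 stands at 1.13 and Sars2, Mars2 and Tarsl2 stand between -0.67 and -0.63, while the other genes drawn lie between -0.29 and 0.39 and Lars2 has an interval from -1.84 to 1.78.

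Ears2 encodes the mitochondrial glutamyl-tRNA synthetase, which charges the mitochondrial tRNA for glutamate and also places glutamate on the tRNA for glutamine. The gene (ENSMUSG00000030871) lies on the minus strand of GRCm38 at chr7:122037213-122067263. Its level was 5.23, 5.35 and 5.90 FPKM in the Wtap-flox hearts and 14.0, 12.3 and 13.5 FPKM in the Wtap-CKO hearts. Every Wtap-CKO heart was above every Wtap-flox heart, with a wide gap between the groups and little spread within them. The mean rose from 5.50 ± 0.359 to 13.3 ± 0.869 FPKM (SD, n = 3 each), 2.41-fold, and the log2 fold change was 1.13 with a standard error of 0.11 (limma, adjusted p = 0.000787). By mean level Ears2 ranked 11 of the 17 mitochondrial enzymes in the Wtap-flox hearts and 1 in the Wtap-CKO hearts. These ranks rest on the deposited gene lengths. Rescaled to the canonical transcript of the GRCm39 annotation, the means over all hearts of Lars2, Iars2, Fars2 and Tars2 exceeded that of Ears2. Ranks within each group were not recomputed on that length.

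The other member of this step is the amidotransferase that turns glutamate into glutamine on the mischarged mitochondrial tRNA. Its 3 subunits did not pass the test as fitted. Qrsl1, the catalytic subunit, was 8.87, 10.5 and 10.6 FPKM in Wtap-flox and 7.54, 6.73 and 7.77 FPKM in Wtap-CKO (log2 fold change -0.40, limma adjusted p = 0.054). It was lower past the threshold in 5 of 15 refits, namely with the filter raised to 5 FPKM, with upper-quartile, TPM or quantile scaling and with limma-voom. Gatc stood at a log2 fold change of 0.21 and Gatb at -0.02. Whether their change differs from that of Ears2 was not tested.

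Ears2 starts back to back with Ubfd1, a gene on the opposite strand, and the annotated genes overlap by 89 bases. Ubfd1 was 9.74, 8.33 and 9.90 FPKM in the Wtap-flox hearts and 10.9, 11.5 and 9.55 in the Wtap-CKO hearts, with overlapping groups (log2 fold change 0.17, limma adjusted p = 0.376). The ratio of Ubfd1 to Ears2 within a library went from 1.86, 1.56 and 1.68 to 0.777, 0.936 and 0.707. The groups did not overlap, and the exact two-sided permutation test gave p = 0.1, the smallest that 3 against 3 allows. The shared start region is shown because Ears2 passed the test and its neighbour did not.

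The sequence runs from 250 bases before to 30 bases after the RefSeq start of Ears2, 5′ to 3′ on the minus strand (GRCm38.p6, chr7:122067057-122067336), and the capitals mark an E-box, CACGTG, 22 bases from the start.
Ears2 start region: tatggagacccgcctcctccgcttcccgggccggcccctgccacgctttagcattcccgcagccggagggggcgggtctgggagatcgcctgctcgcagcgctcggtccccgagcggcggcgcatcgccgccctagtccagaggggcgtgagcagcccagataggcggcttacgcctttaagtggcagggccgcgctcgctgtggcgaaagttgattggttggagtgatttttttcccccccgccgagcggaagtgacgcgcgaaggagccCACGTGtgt

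Of its bases 67.9% were G or C. The E-box, searched on both strands, occurred in 7.24% of 27025 RefSeq start windows and in 5 of the 28 synthetase windows (17.9%), namely those of Aars, Ears2, Farsb, Iars and Tars. The other 4 of these genes did not pass the test, with log2 fold changes between -0.12 and 0.06. A match is a description of letters and not of a bound site.

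Sars2 and Mars2 were the mitochondrial enzymes that fell. Sars2 encodes the mitochondrial seryl-tRNA synthetase (ENSMUSG00000070699, plus strand, chr7:28741992-28753871). Its level was 6.34, 7.71 and 7.44 FPKM in the Wtap-flox hearts and 4.09, 3.79 and 5.02 FPKM in the Wtap-CKO hearts, so that the groups did not overlap. The mean fell from 7.16 ± 0.728 to 4.30 ± 0.638 FPKM (SD, n = 3 each), a log2 fold change of -0.63 with a standard error of 0.13 (limma, adjusted p = 0.014). The call was lost when Wtap-flox 2 (adjusted p = 0.0615), Wtap-flox 3 (0.0502) or Wtap-CKO 1 (0.0523) was left out of the limma fit.

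Mars2 encodes the mitochondrial methionyl-tRNA synthetase, which also supplies the methionyl-tRNA used to start mitochondrial proteins. It is the member with a single exon in the GRCm39 annotation, the others having between 2 and 34 exons, and it lies at chr1:55237177-55248470 on the plus strand of GRCm38 (ENSMUSG00000046994). Its level was 2.20, 2.60 and 2.39 FPKM in the Wtap-flox hearts and 1.12, 1.45 and 1.03 FPKM in the Wtap-CKO hearts. The lowest of the 38 genes by mean level, it was lower in each Wtap-CKO heart than in any Wtap-flox heart. The mean fell from 2.40 ± 0.198 to 1.201 ± 0.221 FPKM (SD, n = 3 each), 0.501 of the flox level. The log2 fold change on the FPKM + 1 scale was -0.63 with a standard error of 0.13 (limma, adjusted p = 0.0127). At so low a level the added 1 shrinks the fold: with an added 0.1 the log2 fold change was -0.95, and on the recovered reads with limma-voom it was -1.01. The call was lost without Wtap-flox 2 (adjusted p = 0.0557).

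Sars2 starts head to head with Mrps12, a protein of the mitochondrial ribosome, with 172 bases between the annotated genes. Mrps12 was 17.2, 20.8 and 24.5 FPKM in the Wtap-flox hearts and 24.1, 33.9 and 51.7 FPKM in the Wtap-CKO hearts (log2 fold change 0.73, limma adjusted p = 0.104), with 1 Wtap-CKO heart inside the flox range. The ratio of Mrps12 to Sars2 was 2.71, 2.69 and 3.29 in Wtap-flox and 5.88, 8.95 and 10.3 in Wtap-CKO (exact two-sided permutation p = 0.1, the smallest possible). The log2 fold changes of the neighbours had opposite signs, and only that of Sars2 passed.

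The start regions of the mitochondrial enzymes that fell are given over 250 bases before and 30 bases after the RefSeq start, 5′ to 3′ on the plus strand (GRCm38.p6, chr7:28741718-28741997 and chr1:55236927-55237206), with the ETS core CCGGAAG or its reverse complement in capitals.
Sars2 start region: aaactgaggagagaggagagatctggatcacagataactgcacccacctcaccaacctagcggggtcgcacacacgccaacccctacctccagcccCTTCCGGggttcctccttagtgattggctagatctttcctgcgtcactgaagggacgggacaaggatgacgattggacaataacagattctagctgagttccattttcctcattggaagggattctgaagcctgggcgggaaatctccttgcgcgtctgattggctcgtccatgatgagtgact
Mars2 start region: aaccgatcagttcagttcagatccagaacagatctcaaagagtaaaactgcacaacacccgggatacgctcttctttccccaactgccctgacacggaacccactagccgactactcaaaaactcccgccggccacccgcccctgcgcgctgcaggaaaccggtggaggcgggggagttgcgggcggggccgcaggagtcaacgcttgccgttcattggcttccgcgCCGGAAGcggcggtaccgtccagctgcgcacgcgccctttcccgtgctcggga

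The ETS core began 154 bases before the start of Sars2 and 23 bases before that of Mars2. It occurred on either strand in 9.12% of all start windows and in 9 of the 28 synthetase windows (32.1%): Cars2, Farsa, Gars, Kars, Mars, Mars2, Rars2, Sars and Sars2. Genes that did not pass carried it too, such as Gars at a log2 fold change of 0.08 and Kars at -0.06. The NRF1 core CGCATGCG occurred in 1.91% of all windows and in 2 of 28 synthetase windows, those of Vars2 and Wars2.

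Tarsl2, a threonyl-tRNA synthetase related to the cytosolic enzyme Tars, was the cytosolic member that fell. It lies at chr7:65644898-65692091 on the plus strand of GRCm38 (ENSMUSG00000030515). Its level was 6.12, 7.19 and 7.64 FPKM in the Wtap-flox hearts and 5.13, 4.09 and 2.98 FPKM in the Wtap-CKO hearts, without overlap between the groups. The mean fell from 6.98 ± 0.779 to 4.07 ± 1.07 FPKM (SD, n = 3 each), a log2 fold change of -0.67 with a standard error of 0.17 (limma, adjusted p = 0.0276). Tars, the main threonyl-tRNA synthetase, ranged from 7.48 to 8.02 FPKM in Wtap-flox and from 7.41 to 8.24 in Wtap-CKO, a log2 fold change of 0.00. The call on Tarsl2 was lost with no filter on low values (adjusted p = 0.0889) and on leaving out Wtap-flox 2 (0.0870), Wtap-flox 3 (0.0863) or Wtap-CKO 2 (0.0502), all by limma. Tarsl2 overlaps Tm2d3, on the same strand, by 923 bases, and Tm2d3 had a log2 fold change of 0.05.

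**Figure D2:**
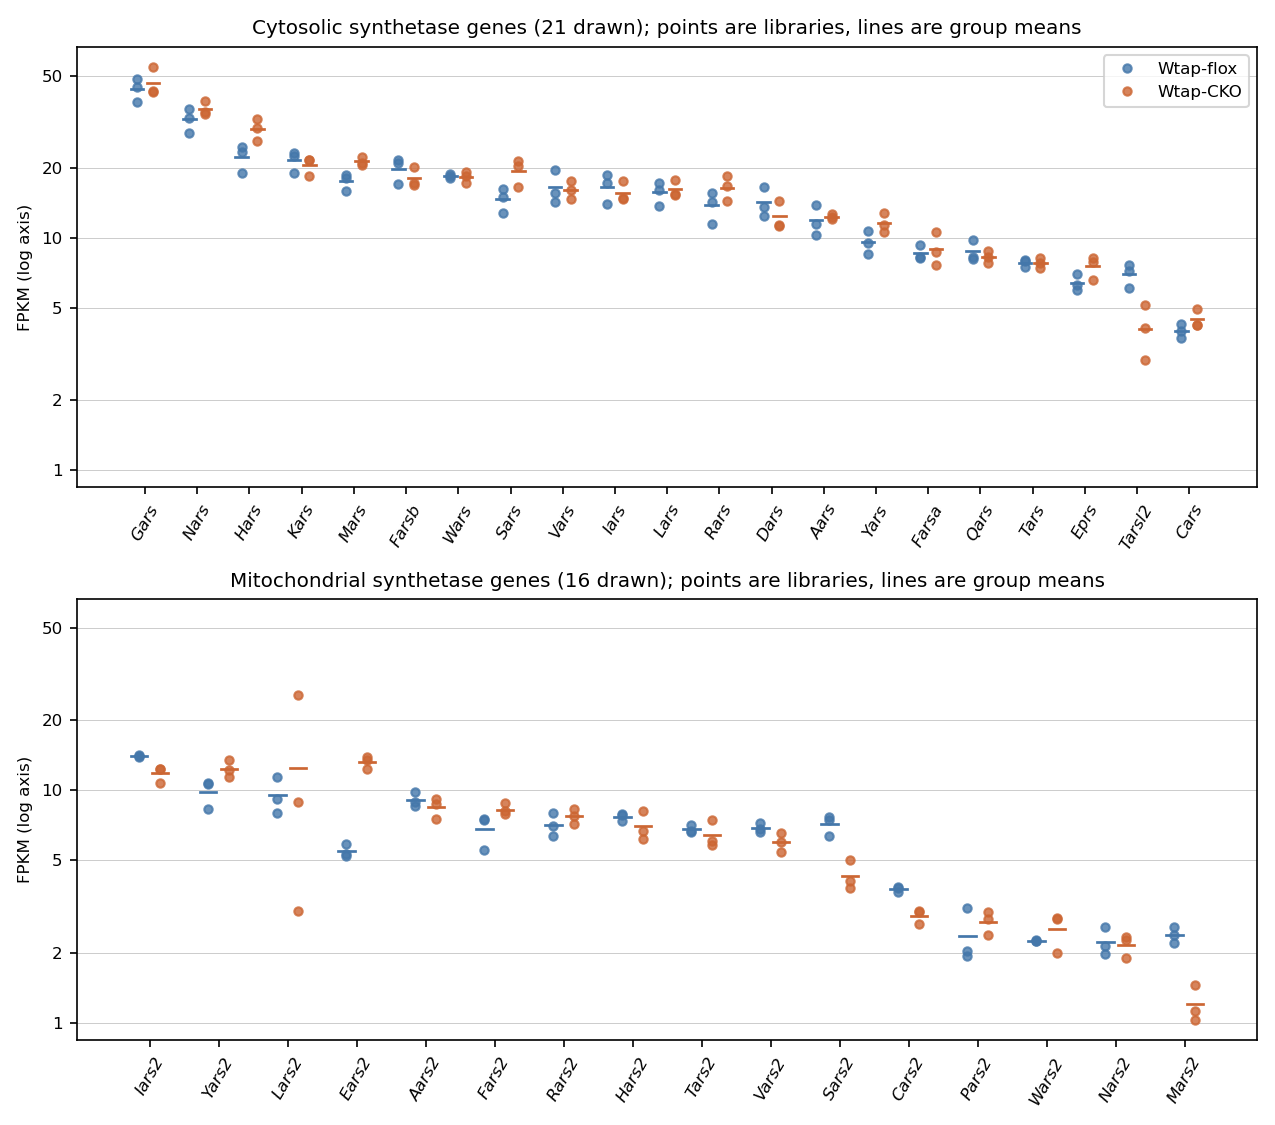
FPKM of 37 of the 38 synthetase genes (log axis) in the 3 Wtap-flox and 3 Wtap-CKO libraries, 1 point per library. Cytosolic enzymes fill most of the upper ranks, and the groups are separated for Ears2 (above) and for Sars2, Mars2 and Tarsl2 (below). They are also separated for genes that did not pass, such as Hars and Yars2 (above) and Iars2 and Cars2 (below).

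Cytosolic enzymes were the more abundant set. Their median over genes was 15.9 FPKM, from 4.23 for Cars (cysteine) to 45.1 for Gars (glycine), and that of the mitochondrial enzymes was 6.62 FPKM, from 1.80 for Mars2 to 12.95 for Iars2 (isoleucine). Of the 15 genes with the highest mean, 14 were cytosolic. After Gars came Nars (asparagine) at 34.2, Hars (histidine) at 25.9 and Kars (lysine) at 21.1 FPKM. The deposited gene lengths exceed the canonical transcript of the GRCm39 annotation more than 2-fold for 8 genes, among them Eprs, whose length was 18102 bases in the table. Rescaled to the canonical length, the medians were 21.8 FPKM for the cytosolic and 7.91 for the mitochondrial enzymes, so the order of the sets was kept while that of single genes moved. The summed level of the cytosolic enzymes was 297, 354 and 343 FPKM in the Wtap-flox hearts and 375, 331 and 350 FPKM in the Wtap-CKO hearts, and the groups overlapped. That of the mitochondrial enzymes was 102, 110 and 109 FPKM against 111, 123 and 103 FPKM, again with overlap. The 123 FPKM of Wtap-CKO 2 include 25.7 FPKM of Lars2, which ranged from 8.01 to 11.4 FPKM in Wtap-flox and was 3.02 FPKM in Wtap-CKO 3.

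Among the cytosolic enzymes that did not pass, 3 had all Wtap-CKO hearts above all Wtap-flox hearts. Hars was 18.9, 24.6 and 23.3 FPKM in the Wtap-flox hearts and 29.8, 26.1 and 32.7 FPKM in the Wtap-CKO hearts (log2 fold change 0.39, limma adjusted p = 0.0979). Sars, for serine, was 12.8, 16.2 and 15.05 FPKM against 20.4, 16.6 and 21.5 FPKM (0.38, limma adjusted p = 0.1), the nearest values of the groups lying close together. Mars, for methionine, was 15.9, 18.7 and 18.1 FPKM against 22.3, 20.7 and 21.1 FPKM (0.27, limma adjusted p = 0.148). Each is the partner of a mitochondrial enzyme whose log2 fold change was negative, as it was for 11 of the 17 mitochondrial enzymes. The remaining 17 cytosolic enzymes that did not pass overlapped between groups, from Dars (aspartate) at -0.19 to Yars (tyrosine) at 0.25.

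**Figure D3:**
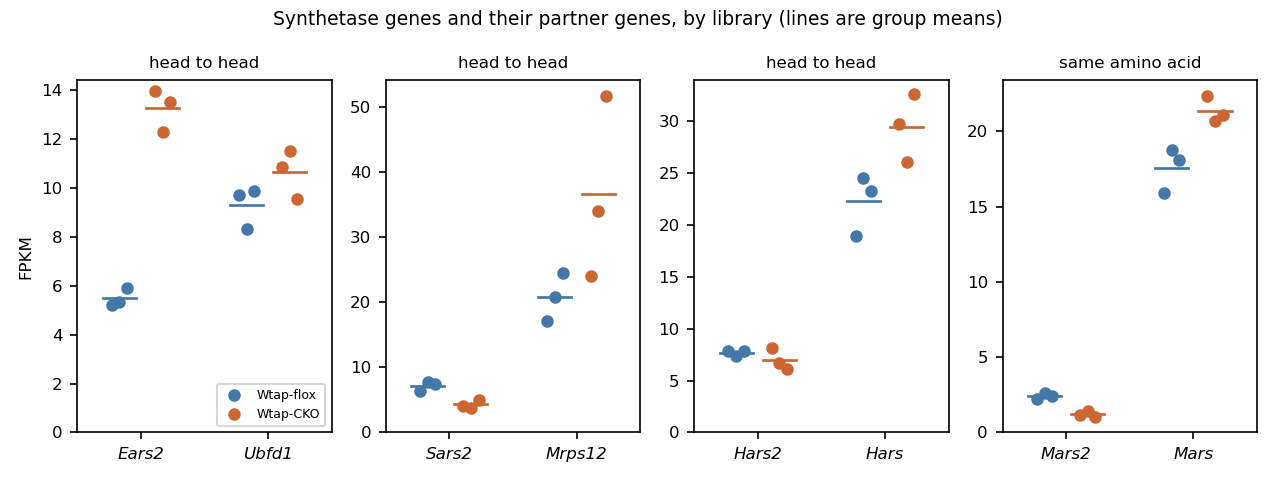
FPKM (vertical axes, from 0) in each library of Ears2, Sars2 and Hars2 beside the gene that starts head to head with it, and of Mars2 beside Mars, with lines at group means. Ears2 is higher in Wtap-CKO while the points of Ubfd1 overlap, and Mars2 is lower while Mars lies between 20.7 and 22.3 in Wtap-CKO against 15.9 to 18.7 in Wtap-flox.

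Among the mitochondrial enzymes that did not pass, 4 had all Wtap-CKO hearts below all Wtap-flox hearts and 2 had them above. Among the 4, Cars2, for cysteine, was 3.81, 3.83 and 3.64 FPKM in the Wtap-flox hearts and 2.99, 2.68 and 3.02 FPKM in the Wtap-CKO hearts (log2 fold change -0.29, limma adjusted p = 0.102). Iars2 and Vars2, for isoleucine and valine, stood at -0.23 and -0.18 in the same direction. Yars2, for tyrosine, was 8.29, 10.6 and 10.7 FPKM in the Wtap-flox hearts and 13.5, 12.3 and 11.5 FPKM in the Wtap-CKO hearts (0.31, limma adjusted p = 0.151), and Fars2, for phenylalanine, stood at 0.25. In all, 13 of the 38 synthetases (34.2%) had groups that did not overlap, 9 of them without passing the test, where 37.1% of all genes tested did not overlap. The mitochondrial enzymes made up 9 of the 13. Cars2 overlaps Naxd by 984 bases on the opposite strand and Iars2 overlaps Rab3gap2 by 2034 bases, and reads of such overlaps cannot be assigned because the strandedness of the counting is not given.

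Lars2, the mitochondrial leucyl-tRNA synthetase, had the widest interval of the 38 genes, and its spread lay within the Wtap-CKO group. Its level was 11.4, 9.16 and 8.01 FPKM in the Wtap-flox hearts and 8.90, 25.7 and 3.02 FPKM in the Wtap-CKO hearts. The highest and the lowest heart were both Wtap-CKO, and the log2 fold change was -0.03 with a standard error of 0.71 (limma, adjusted p = 0.982). CT010467.1, annotated as ribosomal RNA, was 366, 379 and 281 FPKM against 291, 789 and 64.1 FPKM in the same libraries. Gm23935, a row annotated as a miRNA, was 4213, 4527 and 2313 FPKM against 2397, 15278 and 987 FPKM. Across the 6 libraries the log2 level of Lars2 correlated with these rows at r = 0.964 and 0.970, given as a description, since the points share library and depth and 2 libraries set the range. The nuclear noncoding RNA Malat1 was also highest in Wtap-CKO 2 (181 FPKM) and lowest in Wtap-CKO 3 (36.5 FPKM), against 114 to 130 FPKM in Wtap-flox, whereas neither mitochondrial rRNA row had both its highest value in Wtap-CKO 2 and its lowest in Wtap-CKO 3. The 16S rRNA (mt-Rnr2) was 631, 850 and 825 FPKM in the Wtap-flox hearts and 899, 745 and 496 FPKM in the Wtap-CKO hearts, and the 12S rRNA (mt-Rnr1) was 323, 282 and 408 FPKM against 318, 439 and 418 FPKM. What part of the reads counted for Lars2 came from other RNA was not tested.

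**Figure D4:**
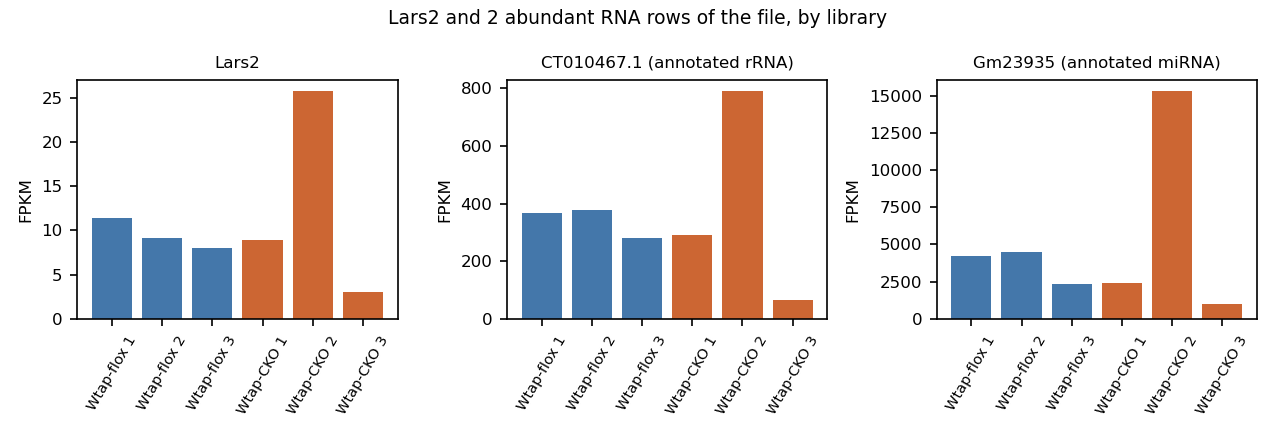
FPKM (vertical axes, from 0) of Lars2, of the annotated rRNA CT010467.1 and of Gm23935 in each of the 6 libraries. All 3 rows are highest in Wtap-CKO 2 and lowest in Wtap-CKO 3.

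For 17 amino acids both a cytosolic and a mitochondrial enzyme were measured, with Eprs standing for glutamate and proline and Farsa for phenylalanine. The ratio of their FPKM within a library does not depend on how the libraries are scaled. It was higher on average in Wtap-CKO for 13 pairs, and the 2 groups did not overlap for 5. How often ratios of other gene pairs behave so was not computed, and neither count is read as a result. Of single genes tested, 37.1% had groups that did not overlap. Eprs enters 2 of the pairs. Mars2, Sars2 and Ears2, which passed the test as single genes, are each in 1 of the 5. The Mars to Mars2 ratio was 7.24, 7.22 and 7.55 in the Wtap-flox hearts and 19.9, 14.3 and 20.47 in the Wtap-CKO hearts. The Sars to Sars2 ratio was 2.03, 2.11 and 2.02 in Wtap-flox and 4.97, 4.38 and 4.28 in Wtap-CKO. In both pairs the flox values were nearly equal and the Wtap-CKO values all lay well above them. Histidine (Hars to Hars2) went from between 2.40 and 3.34 to between 3.64 and 5.31, and cysteine (Cars to Cars2) from between 0.969 and 1.12 to between 1.41 and 1.64. Among the 5 pairs without overlap, glutamate was the one that moved the other way. Its Eprs to Ears2 ratio was 1.14, 1.305 and 1.06 in Wtap-flox and 0.585, 0.642 and 0.489 in Wtap-CKO. The phenylalanine, tryptophan and tyrosine ratios were also lower on average in Wtap-CKO, with overlapping groups. Each of these 5 differences had an exact two-sided permutation p of 0.1, the smallest that 3 against 3 allows, and 0.34 after Benjamini-Hochberg adjustment over the 17 pairs, so the test could not pass for any pair. The leucine pair spanned 0.593 to 5.11 in Wtap-CKO, following Lars2.

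**Figure D5:**
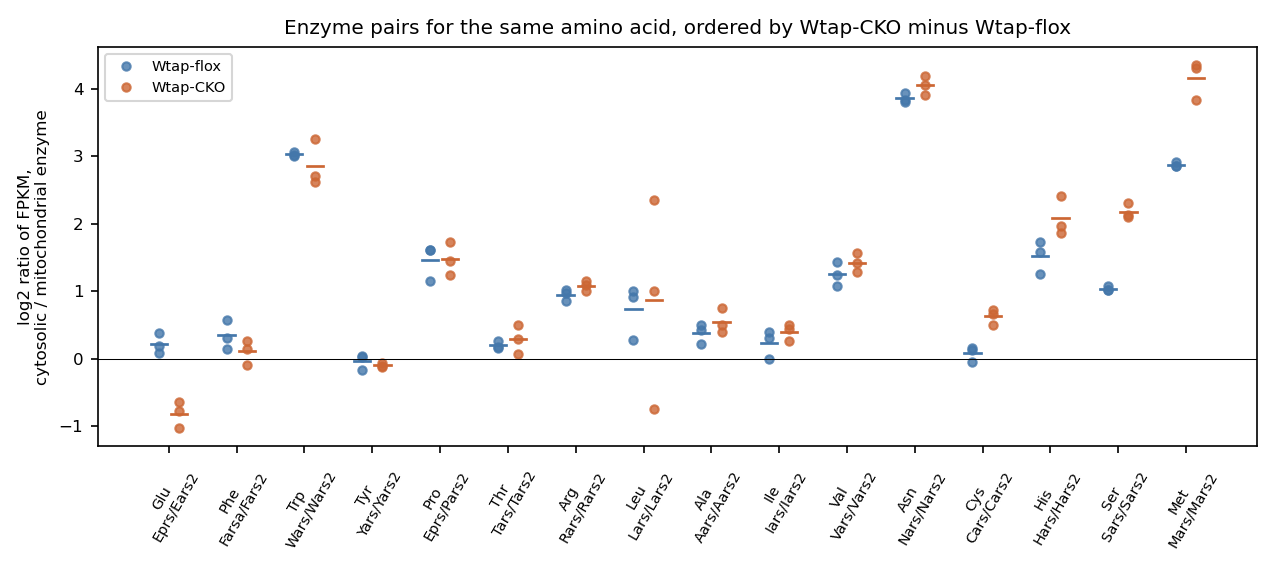
Log2 ratio of cytosolic to mitochondrial enzyme FPKM (vertical axis) for 16 of the 17 amino acids with both, 1 point per library and a line at each group's mean. The groups are separated upward for Met, Ser, His and Cys and downward for Glu.

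Sorted by the architecture of the catalytic domain, with the bifunctional Eprs counted in class I, 1 of 19 class I enzymes was higher and 1 lower, and 0 of 19 class II enzymes were higher and 2 lower. The 8 enzymes of the multisynthetase complex (Dars, Eprs, Iars, Kars, Lars, Mars, Qars and Rars) had 0 members past the test in either direction, where 16.6% of all genes passed, and a median log2 fold change of -0.01. Of the 3 scaffold proteins that hold the complex together, Aimp2 rose, from 12.9, 12.5 and 15.4 FPKM in the Wtap-flox hearts to 22.6, 20.1 and 21.7 FPKM in the Wtap-CKO hearts (log2 fold change 0.63, limma adjusted p = 0.0105). The call on Aimp2 was lost without Wtap-flox 2 (adjusted p = 0.0522). Eef1e1 was 2.80, 3.77 and 4.32 FPKM against 6.10, 4.47 and 6.84 FPKM (0.55, limma adjusted p = 0.0612), and Aimp1 stood at 0.14. Whether the scaffold genes differ from the enzymes they bind was not tested.

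Genes of the integrated stress response were set beside the synthetases that ATF4 is known to activate. Of 31 stress response genes 27 were tested, and 9 were higher and 0 lower in Wtap-CKO, with a median log2 fold change of 0.41. Over all genes tested 9.91% were higher and 6.69% lower. In the list 1 gene was lower with upper-quartile scaling, with TPM scaling and with limma-voom, beside 9, 6 and 10 higher. With each library left out in turn, between 6 and 8 were higher and 0 lower, with 6 without Wtap-flox 3 or Wtap-CKO 1 and 8 without Wtap-CKO 3. Gdf15, a secreted stress hormone, had a log2 fold change of 2.07, the transcription factor gene Cebpb 1.61, Ddit4, an inhibitor of mTORC1, 1.23, and Slc3a2, the heavy chain of amino acid transporters, 1.003. Atf4 mRNA itself was 47.5, 59.7 and 61.6 FPKM in the Wtap-flox hearts and 78.8, 73.6 and 92.2 FPKM in the Wtap-CKO hearts (0.53, limma adjusted p = 0.0505). The groups were apart, but the gene did not pass. Asns, the asparagine synthetase, stood at 0.44 (limma adjusted p = 0.158), Trib3 at 0.41 (0.0771), Psph, of serine synthesis, at -0.39 (0.0514) and Ddit3 at 0.02 (0.952), while Chac1 was under the filter.

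The 12 synthetases known as ATF4 targets (Aars, Cars, Eprs, Gars, Iars, Lars, Mars, Nars, Sars, Tars, Wars and Yars) had 0 members past the test in either direction, a median log2 fold change of 0.11 and 10 positive values of 12. Of these, Sars and Mars had an unadjusted limma p under 0.05, 2 of the 12. The share of all genes under that threshold is at least the 16.6% that passed after adjustment, so the 2 are not read as a result. The count of 0 held under each of the 15 refits tried. Over all genes tested 9.91% were higher, so with 12 genes a count of 0 is near the background and is not read as a result about these synthetases. The stress response list was chosen with results known, and the difference between the lists was not tested.

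The C/EBP-ATF response element, through which ATF4 binds, was searched as TGATGNAA on both strands of the RefSeq start windows (250 bases before to 50 after the start). It occurred in 5 of the 8 ATF4 target synthetases that have such a window and in 0 of the 20 other synthetases with a window, against 4.06% of all 27025 windows. A match in each gene is printed as 30 bases, 5′ to 3′ on the gene's strand, with the element or its reverse complement in capitals (GRCm38.p6), because ATF4 is known to bind this element.
Aars, chr8:111033840-111033869: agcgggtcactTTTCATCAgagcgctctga
Gars, chr6:55037960-55037989: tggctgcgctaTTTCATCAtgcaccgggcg
Iars, chr13:49682126-49682155: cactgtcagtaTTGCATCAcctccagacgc
Tars, chr15:11399655-11399684: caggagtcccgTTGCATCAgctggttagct
Yars, chr4:129189895-129189924: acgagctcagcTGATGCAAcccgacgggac

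These 5 genes had log2 fold changes between -0.08 (Iars) and 0.25 (Yars), with Aars at 0.06, Gars at 0.08 and Tars at 0.00. Sars, the ATF4 target with the largest value at 0.38, had no such letters in its window, which says nothing about elements elsewhere.

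Of 70 genes tested in 8 lists for other steps of tRNA charging and use, 6 were higher (8.57%) and 0 lower, beside 9.91% higher and 6.69% lower over all genes. The 7 genes of the eIF2 alpha kinases and their regulators had 1 higher, Ppp1r15a, which directs the eIF2 alpha phosphatase (log2 fold change 0.80, limma adjusted p = 0.0262), and Eif2ak4, which encodes GCN2, stood at 0.11. Of 13 genes that modify mitochondrial tRNA, 2 were higher and 0 lower: Pus1, a pseudouridine synthase, went from 6.47, 8.60 and 6.65 FPKM to 13.01, 11.7 and 15.7 FPKM (0.81, limma adjusted p = 0.00808), and Trmt10c, a subunit of mitochondrial RNase P and a tRNA methyltransferase, from 5.92, 7.02 and 7.80 FPKM to 12.4, 11.04 and 10.4 FPKM (0.64, limma adjusted p = 0.013). The call on Trmt10c was lost without Wtap-CKO 1 (adjusted p = 0.0528). The 11 mitochondrial translation factors had 0 past the test and a median of 0.02. Of the 7 cytosolic elongation factors 1 was higher, Eef1g (0.69, limma adjusted p = 0.029). The median over the list was 0.41, with 5 positive values and 2 negative. Processing and export of tRNA gave 1 higher of 11 (Clp1, 0.51), RNA polymerase III 1 of 13 (Polr3d, 0.65), and proofreading of charged tRNA 0 of 3 and selenocysteine charging 0 of 5. Calls of lower members appeared in some refits: without Wtap-flox 2, with TPM scaling and with limma-voom 1 gene of mitochondrial tRNA modification was lower, with TPM scaling 2 mitochondrial translation factors were, and with TPM or quantile scaling 1 elongation factor and 1 gene of RNA polymerase III were. Wars, induced by interferon gamma in many cells, had a log2 fold change of -0.02, while 2 of 14 interferon response genes were higher (Ifit3 at 0.56 and Oasl2 at 0.56). Each of Ppp1r15a, Eef1g, Clp1, Polr3d, Ifit3 and Oasl2 lost its call when some single library was left out, among them Wtap-flox 1 for all 6, with limma adjusted p from 0.0509 to 0.119.

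The 38 genes lie on 15 chromosomes, and 12 overlap another coding gene. Of the 5 on chromosome 7 (Cars, Ears2, Nars2, Sars2 and Tarsl2), 3 passed, where 16.6% of all genes tested passed. The 3 lie far apart on it. The count by chromosome was not among the planned results and, with 5 genes, is not read as a result. Hars and Hars2 share a start region with an overlap of 198 bases, and their values stood at 0.39 and -0.13, with neither past the test. Of the members with a head-to-head coding neighbour within 1000 bases, 10 in all, Ears2 and Sars2 passed, beside the same 16.6% of all genes. Mars overlaps Ddit3 by 68 bases and Yars overlaps C77080 by 30 bases, and C77080 was lower in Wtap-CKO (log2 fold change -0.45, limma adjusted p = 0.0358) while Yars was not.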

How the data were processed

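RNA of 3 Wtap-flox and 3 Wtap-CKO hearts was measured, grouped by genotype label. The authors deposited FPKM per gene, 1 column per library. Per the submitters' processing notes, the tools were HISAT2 2.0.5 and featureCounts 1.5.0-p3, with GRCm39 as the build. The start or end of 36 of 37 members matched GRCm38.p6 within 1000 bases, against 2 of 38 in GRCm39, so coordinates are GRCm38. FPKM times length gave whole reads for 100% of values within 0.01. A read at 1 kb was worth 0.0564 to 0.0647 FPKM.

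All genes averaging 1 FPKM or more entered a two-sided limma fit (3.58.1, R 4.3.3) on log2(FPKM + 1). Moderation was robust and used a variance trend. The procedure was tested on simulated data. Single ratios used exact permutation tests (scipy 1.17.1). All members could be named, except that 1 member and 1 sequence are counted but not reported here. From other lists up to 4 genes with the smallest adjusted p, the first in the opposite direction, and Wtap, Atf4, Ddit3, Trib3, Asns, Chac1 and Eif2ak4 were named. The neighbours and the rows beside Lars2 were chosen after their values were seen, as were the ETS, NRF1 and E-box motifs. Start windows of 28 members were found in RefSeq. The members and lists were chosen with earlier results of these data known.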

Additional observations from a re-analysis of the deposited data

How the results depend on the processing

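Refits changed the pseudocount, the filter, the scaling, the variance trend or the test (limma-voom on recovered reads), added a replicate block, or left out a library. Ears2 passed in all 15 (log2 fold change 0.99 to 1.27). Cytosolic enzymes lower numbered 0 with no filter, 0 with Tarsl2 counted as mitochondrial and 0 to 1 with a library left out. Mitochondrial enzymes lower numbered 1 at a mean of at least 5 FPKM, which leaves 31 members, 4 with total (TPM) scaling and 0 to 2 with a library left out. TPM scaling moved the median of all genes to -0.13, the cytosolic median to -0.11 and the mitochondrial to -0.22, and Cars2 (-0.42, limma adjusted p = 0.0353) then passed. The cytosolic median was also negative with quantile normalization (-0.04) and without Wtap-flox 1 (-0.02). Calls over all genes ran from 1195 without Wtap-flox 2 or Wtap-CKO 1 to 2537 with voom, against 2086, with 1206 under no filter and 1251 and 1277 without Wtap-flox 1 and 3. In deviations from their group means, same-numbered hearts correlated at -0.216, -0.0752 and -0.0764. They showed no likeness by number, although deviations within groups of 3 cannot settle whether hearts are paired. With the replicate block 1673 genes passed and mitochondrial enzymes lower numbered 2. Leaving out Lars2, added after seeing the data, gave a mitochondrial median of -0.08.

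The sign turned in some refit for 16 members, none of which passed in any. With TPM scaling Gars stood at -0.0808, Nars at -0.00723, Lars at -0.12, Aars at -0.0959, Farsa at -0.11, Tars at -0.15, Rars2 at -0.0346, Cars at -0.00144 and Wars2 at -0.00416. Quantile normalization gave Gars -0.0492, Lars -0.0435, Farsa -0.00346, Tars -0.0444 and Nars2 0.0167, and upper-quartile scaling gave Tars -0.0177. With a library left out the log2 fold changes ran from -0.032 to 0.15 for Gars, -0.15 to 0.00996 for Kars, -0.0487 to 0.0252 for Wars, -0.12 to 0.0937 for Vars, -0.19 to 0.00721 for Iars, -0.0482 to 0.11 for Lars, -0.0307 to 0.17 for Aars, -0.72 to 0.64 for Lars2, -0.0678 to 0.14 for Farsa, -0.11 to 0.0102 for Qars, -0.0317 to 0.0363 for Tars and -0.0807 to 0.0518 for Nars2. Beyond the construction of each refit, the cause was not tested. With 3 hearts a group, differences under about 1.41-fold were often within the intervals.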
